A study of Mus musculus with 6 samples.

Results

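Treacle and the core machinery of RNA polymerase I were followed through 10 genes: Tcof1, which encodes treacle, the polymerase subunit genes Polr1a, Polr1b, Polr1c, Polr1d and Polr1e, the promoter factor genes Ubtf, Rrn3 and Taf1b, and Nolc1, which encodes a nucleolar phosphoprotein related to treacle. The members were all probe sets annotated to exactly 1 gene symbol, that symbol being 1 of these 10. On these arrays a transcript is read by a probe set, a small family of oligonucleotides summarised as 1 value. This gave 24 probe sets of the 45037 on the array that were not controls, or 10 genes of the 18193 with a symbol. The genes were picked by name as the targeted gene, its polymerase partners and other genes of Treacher Collins syndrome, not by their signals.

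The samples were single whole mouse embryos at embryonic day 8.5, 3 of them wild type and 3 littermates labelled Tcof1+/-, each on its own Affymetrix Mouse Genome 430 2.0 array. The labels name no treatment for either group and do not describe the strain, the sex or the structure of the mutant allele. Each target was amplified from 100 ng of total RNA, and every array had been scaled to a trimmed mean signal of 150. The values are therefore relative to the RNA of each embryo and cannot show a change in the total RNA of the embryo. The number of arrays limits the precision of every comparison, and since the samples were whole embryos, fewer cells of a type and less RNA per cell cannot be told apart.

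RNA polymerase I makes the long precursor of ribosomal RNA in the nucleolus. The upstream binding factor UBF, encoded by Ubtf, and the selectivity factor SL1, which contains the product of Taf1b, assemble on the ribosomal DNA promoter, and the factor TIF-IA, encoded by Rrn3, brings an initiation-competent polymerase to them. Treacle binds UBF and the polymerase in the nucleolus and is needed for full transcription of ribosomal DNA. Loss of 1 copy of human TCOF1 is the most frequent cause of Treacher Collins syndrome, a disorder of the face in which cranial neural crest cells are too few. POLR1B, POLR1C and POLR1D are further genes of that syndrome, and variants of POLR1A cause a related facial disorder.

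The tissue label was borne out by its markers. All 4 neural tube, 3 neural crest, 3 paraxial mesoderm, 3 heart and 3 gut or floor plate markers, and 2 of 3 endothelial markers, lay above the highest bacterial control without a spiked target on every array, a control that reached 8.55 to 13.5. The embryos differed in extraembryonic and blood content within both genotypes. The summed signal of 6 yolk sac endoderm markers ranged from 1779 to 8278 in wild types and from 831 to 12590.3 in heterozygotes, and that of 6 primitive erythroid markers from 5788 to 13641 and from 306 to 11211. The 3 trophoblast markers summed to 54.7 to 88.7 in wild types and 57.6 to 82.6 in heterozygotes. Among these 3, Hand1 lay above the control on every array, and Tpbpa and Ascl2, at 1.15 to 19.9, did not. The 5 maternal decidua markers summed to 650 to 733 in wild types and 673 to 748 in heterozygotes. Of those 5, Bmp2, Wnt4 and Hand2 lay above the control on every array, and Prl8a2 and Prl3c1, at 0.246 to 18.9, did not. Hand2 (mean 443 in wild types and 472 in heterozygotes) and Bmp2 (166 and 155) gave most of the decidua sum. Whether the signals of Hand1, Bmp2, Wnt4 and Hand2 came from trophoblast or decidua or from the embryo itself was not tested. None of these 4 lists separated the genotypes.

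The starts of 9 members were found in the RefSeq promoter table of build GRCm38.p6, which held no entry for Tcof1. Windows of 300 bases, 250 before to 50 after each start, were searched on both strands for the E-box CACGTG, the site of the MYC family, and for CCGGAAG, a core site of ETS factors. The motifs were chosen after the sequences had been seen. The ETS core was in 5 of the 14 windows of these genes (1 each of Nolc1, Polr1c, Polr1e, Rrn3 and Taf1b, with Ubtf holding 6 windows) and in 8.86% of all 32851 windows, and the E-box was in 1 of the 14, that of Rrn3, and in 7.15% of all windows. The motifs share no bases in these windows. The last 100 bases before the start are shown for the 3 genes with a whole match there, with the matches in capitals, so that the matches can be seen in place. A match describes letters and is not evidence of binding.
Rrn3, chr16:13780599-13780698, plus strand: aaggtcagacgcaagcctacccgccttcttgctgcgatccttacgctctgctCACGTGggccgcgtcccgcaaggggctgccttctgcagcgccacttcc
Polr1c, chr17:46248046-46248145, minus strand: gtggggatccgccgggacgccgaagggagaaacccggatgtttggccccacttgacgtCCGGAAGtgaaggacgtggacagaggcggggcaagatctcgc
Nolc1, chr19:46075747-46075846, plus strand: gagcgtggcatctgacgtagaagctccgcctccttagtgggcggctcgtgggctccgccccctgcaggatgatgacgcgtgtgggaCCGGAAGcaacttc
The E-box shown for Rrn3 began 48 bases before its start, and another began 215 bases before that start in the searched window. The ETS cores of Polr1c and Nolc1 began 42 and 14 bases before the starts of those genes.

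Tcof1, the targeted gene, was the only member that passed the test. Its brightest probe set, 1424643_at, gave 382, 393 and 387 in wild-type embryos 1, 2 and 3 and 222, 179 and 231 in heterozygous embryos 1, 2 and 3. The wild types lay within a narrow band and every heterozygote lay far below it, with heterozygous embryo 2 the lowest. Set against the wild-type mean, the heterozygotes carried 57.4%, 46.3% and 59.7% of the Tcof1 signal. In the limma fit over all probe sets, on the scale log2(signal + 1.87), the difference was -0.88 (SE 0.12, n = 3 per genotype, adjusted p = 0.0352), with a 95% confidence interval of -1.14 to -0.61. That interval holds -1, the value of a fall to 50% of the wild-type level.

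The other Tcof1 probe sets moved in the same direction by smaller amounts that did not pass. On 1423601_s_at, whose probes match several transcripts, the wild types gave 154, 179 and 130.02 and the heterozygotes 107, 94.1 and 99.9. On 1423600_a_at, whose probes match alternative transcripts of the gene, the wild types gave 93.0, 87.9 and 89.5 and the heterozygotes 54.5, 52.7 and 57.4. The genotypes did not overlap on either. The heterozygous means were 64.9% and 60.9% of the wild-type means, with log2 differences of -0.61 (interval -0.94 to -0.27, limma adjusted p = 0.582) and -0.70 (interval -1.04 to -0.35, adjusted p = 0.385). The interval of 1423601_s_at does not reach -1, although those of the other probe sets do. Within each embryo, the log2 signal of 1424643_at exceeded that of 1423601_s_at by 1.12 to 1.56 in wild types and by 0.92 to 1.20 in heterozygotes, which overlap. It exceeded that of 1423600_a_at by 2.01 to 2.14 in wild types and by 1.73 to 1.99 in heterozygotes, which do not overlap. The gap was narrow, with wild-type embryo 1 at 2.014 and heterozygous embryo 1 at 1.991. In the remaining pair, 1423601_s_at exceeded 1423600_a_at by 0.53 to 1.01 in wild types and by 0.78 to 0.94 in heterozygotes, which overlap.

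**Figure D1:**
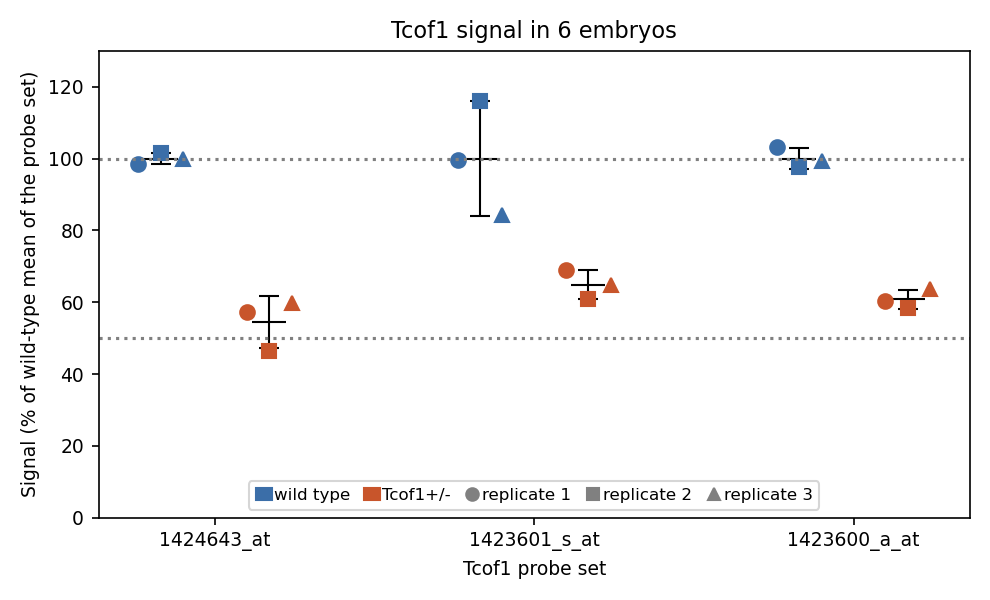
Tcof1 signal per embryo on its 3 probe sets, as a percent of the wild-type mean of the same probe set (blue wild type, orange Tcof1+/-, symbols by replicate number, black bars mean ± SD, n = 3, dotted lines at 100% and 50%). The heterozygotes lie between 46.3% and 69.0% and every wild type at 84.2% or above.

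Of the 22 member probe sets tested, 1 passed at an adjusted p under 0.05, the brightest of Tcof1. Among all 27022 probe sets, 0.0814% passed in either direction, 21 of them higher and 1 lower in heterozygotes. The 1 lower call, 0.0037% of all, was that Tcof1 probe set itself. The lower share is therefore no separate background for the Tcof1 call. The call for Tcof1 did not survive the loss of any single array (limma adjusted p = 0.104, 0.102 and 0.0586 without heterozygous embryo 1, 2 or 3, and 0.181, 0.190 and 0.178 without wild-type embryo 1, 2 or 3). It was also lost when scan day entered as a block (limma adjusted p = 0.0906) and without the intensity trend of the variance prior (0.413), while the difference stayed between -0.95 and -0.74 under all 18 alternatives.

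Other measures moved with the genotype beside Tcof1. The 4 neural tube markers summed to 1502 to 1743 in wild types and 1165 to 1422 in heterozygotes, and the 3 neural crest markers to 375 to 547 and 270.5 to 314, in both cases without overlap and with no marker at 0. Each neural tube marker also separated the genotypes downward by itself, where 6.18% of all tested probe sets did so. Sox10, Foxd3 and Tfap2a each overlapped between the genotypes. The summed paraxial mesoderm, heart, endothelial and gut or floor plate markers overlapped as well. Paraxial mesoderm gave 738 to 1276 in wild types and 661 to 872 in heterozygotes, and heart 3309 to 4007 and 3822 to 4835. The 3 prime over 5 prime log2 ratio of the Gapdh controls, a quality measure that is lower in better preserved RNA, was 0.84 to 1.04 in wild types and 0.68 to 0.81 in heterozygotes. The same ratio of the actin controls overlapped, at 0.74 to 0.84 and 0.68 to 0.81. The highest bacterial control without a spiked target was 11.36 to 13.48 in wild types and 8.55 to 11.27 in heterozygotes, without overlap. The median of those controls overlapped, at 1.245 to 2.172 and 1.394 to 2.861. Their part in the Tcof1 result was not tested.

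None of the 19 tested probe sets of the other 9 genes passed (limma adjusted p from 0.774 to 0.982), and 1 had an unadjusted p under 0.05, where 6.22% of all probe sets did. Their differences ran from -0.58 to 0.43 on the log2 scale, 12 positive and 7 negative where 50.9% of all probe sets were positive, with a median of 0.09 beside 0.00 over all probe sets tested. Most were measured closely. The 95% confidence interval lay within 1.5-fold in either direction for 14 of the 19, against 48.4% of all probe sets. It lay above -1 for 18 of the 19, all except the dimmer Ubtf probe set, and for 23903 of all 27022 probe sets. A fall as large as a halving was thus outside the interval for these 18, as for most probe sets tested.

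**Figure D2:**
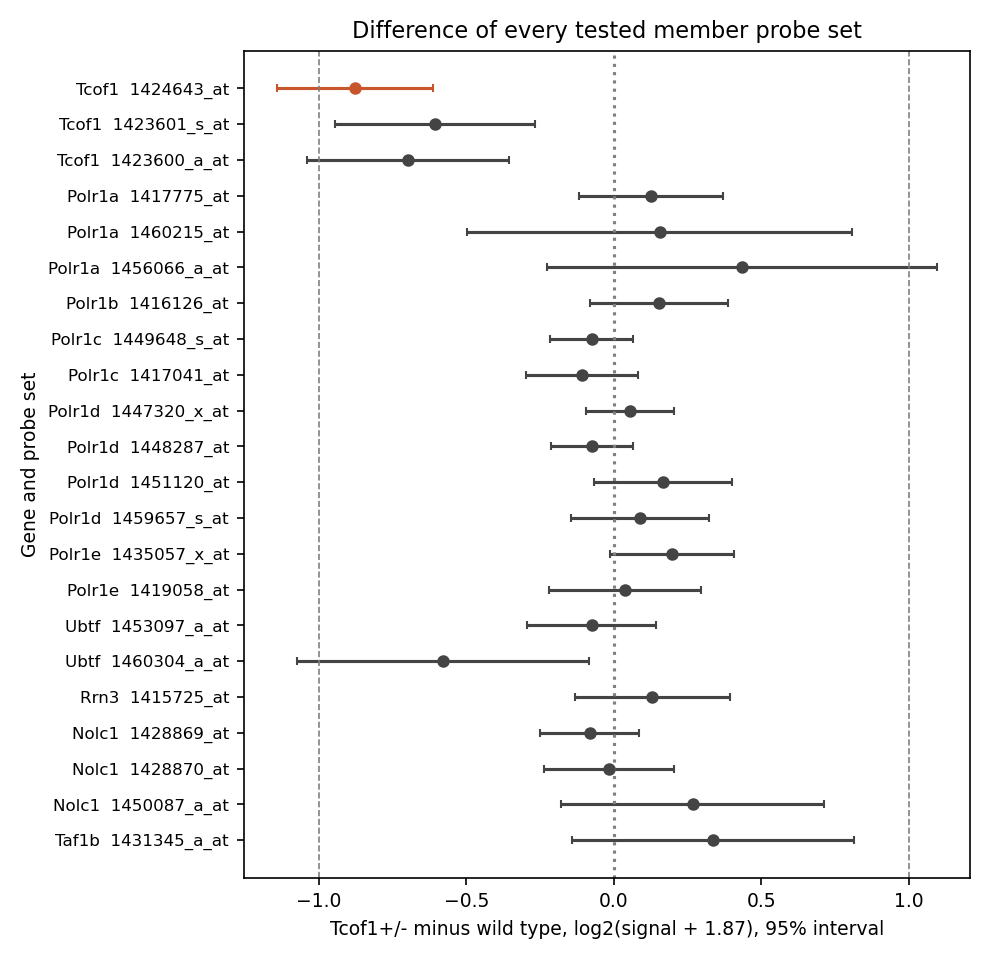
Difference between Tcof1+/- and wild-type embryos for each of the 22 tested member probe sets on the log2(signal + 1.87) scale, with 95% confidence intervals from limma (3 embryos per genotype, orange for adjusted p under 0.05, dashed lines at -1 and 1). The Tcof1 probe sets lie at -0.88 to -0.61 and the others between -0.58 and 0.43.

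The genes of the catalytic core of polymerase I were Polr1a and Polr1b, which encode its large subunits. The brightest Polr1a probe set, 1417775_at, gave 287, 286 and 294 in wild types and 306, 357 and 288 in heterozygotes. The genotypes overlapped, and heterozygous embryo 2 alone stood above the rest. The log2 difference was 0.13 (interval -0.12 to 0.37, limma adjusted p = 0.872), and 0.04 without heterozygous embryo 2. The Polr1b probe set gave 378, 312 and 364 in wild types and 397, 374 and 399 in heterozygotes, with wild-type embryo 2 the lowest of the 6. The log2 difference of Polr1b was 0.15 (interval -0.08 to 0.39, adjusted p = 0.849), and 0.07 without wild-type embryo 2.

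The other Polr1a probe sets were dimmer and told less. On 1456066_a_at the heterozygotes were close together at 50.7, 51.6 and 51.4, and the wild types spread over 53.1, 22.3 and 43.7. Its log2 difference of 0.43 (interval -0.23 to 1.10, limma adjusted p = 0.851) rested on wild-type embryo 2, without which it was 0.09. On 1460215_at the wild types gave 118, 99.1 and 50.3 and the heterozygotes 75.7, 94.7 and 115, a difference of 0.16 (adjusted p = 0.939) that was -0.34 among the 4 arrays scanned first and 1.16 between the 2 scanned second. The remaining probe sets, 1447597_at and 1447598_x_at, were too dim to be tested, at 0.378 to 12.6 and 3.60 to 11.5, and so are given as listed values only.

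Polr1e, the gene of a subunit that works in initiation and elongation, was the 1 member with a probe set higher in every heterozygote. On 1435057_x_at, an identifier that marks probes shared with similar sequences, the wild types gave 334, 316 and 337 and the heterozygotes 359.7, 397 and 377. All 3 heterozygotes lay above all 3 wild types, with a log2 difference of 0.20 (SE 0.09, interval -0.01 to 0.41, limma adjusted p = 0.799). The other Polr1e probe set, 1419058_at, gave 312, 257 and 264 against 266, 305 and 281 and did not repeat the separation, with a difference of 0.04 (adjusted p = 0.964).

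Polr1c and Polr1d encode a pair of subunits that polymerase I shares with polymerase III, which makes 5S ribosomal RNA and transfer RNAs. The brightest Polr1c probe set, 1449648_s_at, gave 1689, 1651 and 1646 in wild types and 1528, 1617 and 1590.3 in heterozygotes. The heterozygotes lay just below the wild types without overlap. The log2 difference was -0.07 (SE 0.06, interval -0.21 to 0.07, limma adjusted p = 0.868). On 1417041_at the values were 789, 679 and 722 against 656, 674 and 699, which overlapped, with a difference of -0.11 (adjusted p = 0.862) that was -0.05 without wild-type embryo 1.

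Polr1d had 4 probe sets, and they did not share a direction. On 1448287_at the wild types gave 1519, 1487 and 1514 and the heterozygotes 1411, 1452 and 1429, again a small separation downward (log2 -0.07, interval -0.21 to 0.06, limma adjusted p = 0.868). The 3 others were positive and overlapped. The brightest, 1447320_x_at, gave 2986, 2680.4 and 2687 against 2992, 2935 and 2756 (log2 0.06, interval -0.09 to 0.21). Probe set 1451120_at differed by 0.17 and 1459657_s_at by 0.09, with limma adjusted p of 0.842 and 0.904.

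In all, 3 of the 19 probe sets separated the genotypes without overlap, 2 downward (Polr1c and Polr1d) and 1 upward (Polr1e). Over all tested probe sets 12.2% did so, 6.18% downward and 6% upward. Every one of these 3 differences was at most 0.20 in size on the log2 scale. Leaving out 1 array moved the difference by over 1.5 times for the 16 other probe sets and for none of these 3. Separation without overlap by itself makes such moves smaller, so this count adds no separate support for the 3.

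**Figure D3:**
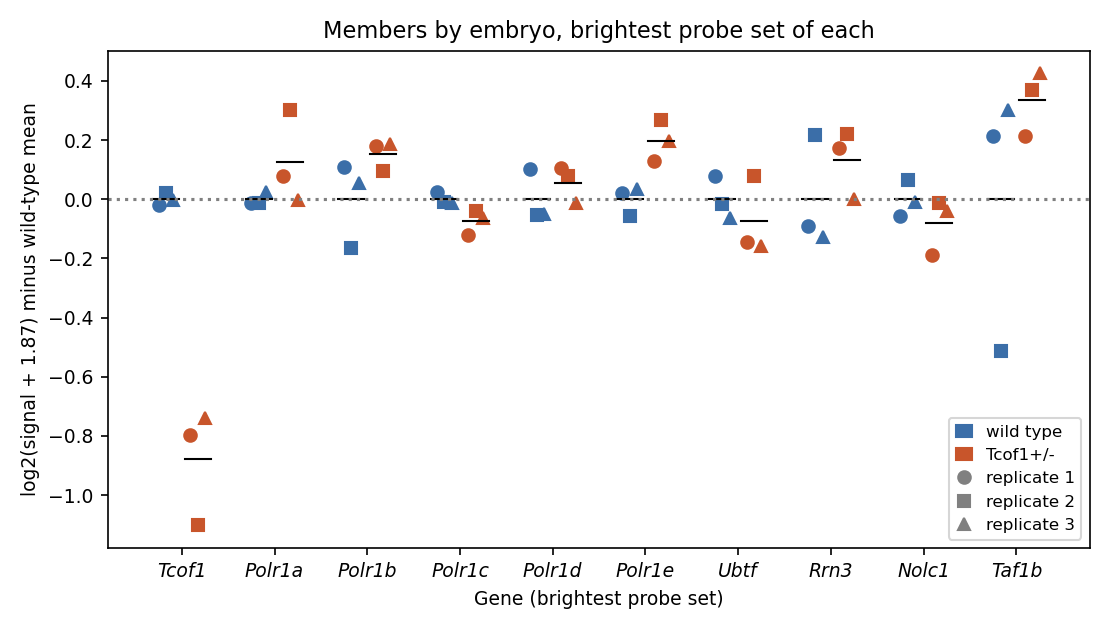
Log2(signal + 1.87) minus the wild-type mean for the brightest probe set of each of the 10 genes, per embryo (blue wild type, orange Tcof1+/-, symbols by replicate number, short lines the mean of 3). Tcof1 lies at -1.10 to -0.74 in the heterozygotes, and wild-type embryo 2 stands apart at -0.51 for Taf1b.

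Of the promoter factors, Ubtf gave the largest negative difference outside Tcof1, on its dimmer probe set. On 1460304_a_at the wild types gave 163, 114 and 89.7 and the heterozygotes 90.1, 66.1 and 82.0. Wild-type embryo 3 fell just below heterozygous embryo 1, so the genotypes overlapped. The log2 difference was -0.58 (SE 0.22, interval -1.08 to -0.08, unadjusted p = 0.0266, limma adjusted p = 0.774), and it was -0.80 among the arrays scanned first and -0.13 between those scanned second. Without wild-type embryo 1, the brightest on this probe set, it was -0.35. The brighter Ubtf probe set, 1453097_a_at, gave 518, 485 and 470 (mean 491 ± 24.9, SD, n = 3) against 444.2, 518 and 440.1, with a difference of -0.07 (interval -0.29 to 0.15, adjusted p = 0.913). Both identifiers mark probes that match alternative transcripts of the gene.

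Rrn3 and Taf1b, which encode the factors that load the polymerase and hold the promoter, were positive and did not pass. Rrn3 gave 367, 455 and 357 in wild types and 440.4, 455 and 391 in heterozygotes, with a log2 difference of 0.13 (interval -0.13 to 0.39, limma adjusted p = 0.876). Wild-type embryo 2 was as high as the highest heterozygote for this gene, and the difference ran from 0.07 without wild-type embryo 3 to 0.24 without wild-type embryo 2. Taf1b gave 110, 65.5 and 117 in wild types and 110, 122 and 127 in heterozygotes. Here wild-type embryo 2 was far below the rest, and the difference of 0.34 (interval -0.14 to 0.81, adjusted p = 0.846) became 0.08 without it.

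Nolc1 encodes Nopp140, which like treacle carries long serine-rich acidic repeats. Its brightest probe set, 1428869_at, gave 1351, 1472 and 1398 in wild types and 1234, 1393 and 1367 in heterozygotes. The genotypes overlapped, and the log2 difference was -0.08 (interval -0.25 to 0.09, limma adjusted p = 0.880). Probe set 1428870_at differed by -0.02 (adjusted p = 0.982) and 1450087_a_at by 0.27 (adjusted p = 0.856). The latter gave 376, 212 and 299 in wild types and 406, 357 and 288 in heterozygotes, and its difference was 0.05 without wild-type embryo 2.

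Wild-type embryo 2 was the lowest of the 6 embryos for 9 of the 19 probe sets outside Tcof1, while over all tested probe sets it was the lowest for 19.7%. Wild-type embryo 1 was the highest for 8 of the 19, and for 16.3% of all tested. The median of the 19 probe sets relative to the wild-type mean was 0.11, -0.05 and -0.01 in wild-type embryos 1, 2 and 3 and 0.04, 0.14 and 0.00 in heterozygous embryos 1, 2 and 3. The genotypes overlapped in this measure, and the wild types alone spanned most of its range.

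Other genes of the pathway were taken as 4 lists with 35 genes, of which 32 had a probe set with 1 symbol and were tested on the brightest one. None passed in either direction (limma, 0 of 32 at an adjusted p under 0.05 and 0 at an unadjusted p under 0.05). Over all tested probe sets the shares were 0.0814% and 6.22%, so the lack of adjusted calls is no result about these genes. The 14 positive and 18 negative differences had a median of -0.01. The widest differences on these brightest probe sets were 0.26 and -0.21 on the log2 scale. Over all 66 tested probe sets of these genes, 36 were positive and 30 negative, none passed, and the differences ran from -0.46 to 0.99. The highest was Taf1d, the gene of another SL1 subunit, on its dim probe set 1452987_at, with 18.6, 30.04 and 27.0 in wild types and 38.4, 39.1 and 86.6 in heterozygotes (unadjusted p = 0.0166, the only one under 0.05, limma adjusted p = 0.737). The genotypes did not overlap there, whereas on the brightest Taf1d probe set the difference was 0.14 (adjusted p = 0.891). On the brightest probe sets, in 5 of the 32 the heterozygotes lay below the wild types without overlap, beside 6.18% of all tested probe sets, and in 0 above.

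The 6 tested genes of the remaining polymerase I subunits and of those shared by all 3 nuclear polymerases were all negative on their brightest probe sets, with a median of -0.09, where 49.1% of all tested probe sets were negative. Over their 10 tested probe sets 8 were negative and 2 positive, Polr2e on 1451093_at (0.22) and Polr1f on 1428634_at (0.07). Without wild-type embryo 2 or 3 or heterozygous embryo 2, or on the first scan day alone, 5 of the 6 brightest were negative. Polr2f, a shared subunit gene, gave 1661, 1529 and 1559 in wild types and 1499, 1390.4 and 1404 in heterozygotes, which did not overlap (log2 -0.15, SE 0.07, limma adjusted p = 0.801). Polr2h, another shared subunit gene, differed by -0.08 (adjusted p = 0.875) and also did not overlap. The smallest difference in this list was -0.01, for Znrd1, now named Polr1h.

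Of the 8 promoter, termination and silencing factor genes, 4 were positive and 4 negative, with a median of 0.02. Tbp, which encodes the TATA-binding protein of SL1 and of other initiation complexes, gave 356, 263 and 311 against 338, 338 and 379 (log2 0.19, SE 0.13, limma adjusted p = 0.848). Ttf1, whose product stops polymerase I at the end of the ribosomal gene, gave 116, 128 and 116 against 115, 92.0 and 103 (log2 -0.21, SE 0.14, adjusted p = 0.848). The dimmer Ttf1 probe set, 1426610_a_at, went the other way, with a difference of 0.14 (limma adjusted p = 0.923).

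Of the 10 tested polymerase III subunit genes, 7 were positive and 3 negative, with a median of 0.11. Polr3d, with 269, 222 and 291 against 300.1, 277 and 301, and Polr3g, with 270.3, 296 and 327 against 332, 349 and 306, had the smallest p (log2 0.17 and 0.15, limma adjusted p of 0.853 and 0.856). Both overlapped between the genotypes.

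The list of treacle partners held the ubiquitin ligase genes Kbtbd8 and Cul3, which act on treacle and Nopp140 in neural crest specification, the DNA damage genes Nbn and Topbp1, the mitotic kinase gene Plk1 and the nucleolar genes Fbl, Nop56 and Ddx21. Of the 8, 3 were positive and 5 negative, with a median of -0.01. Plk1 gave 1078, 1119 and 1122 in wild types and 948, 987 and 1067 in heterozygotes, without overlap (log2 -0.15, SE 0.07, limma adjusted p = 0.810). Ddx21, an RNA helicase gene, gave 1096, 1050.0 and 1146 against 1208, 1107 and 1312 (log2 0.14, SE 0.08, adjusted p = 0.838).

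**Figure D4:**
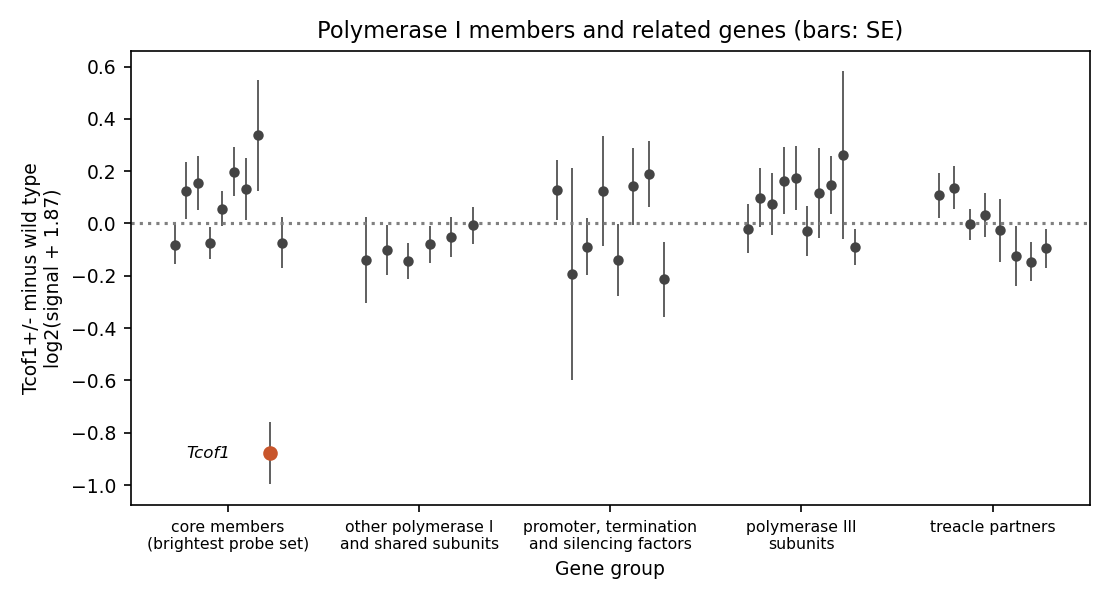
Difference between Tcof1+/- and wild-type embryos on the log2(signal + 1.87) scale, 1 point per gene on its brightest tested probe set, bars SE from limma (3 embryos per genotype), for the 10 core members and the 4 related lists. Tcof1 lies at -0.88, and the 32 genes of the lists lie between -0.21 and 0.26.

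The genes outside the set whose pattern over the 6 arrays lay nearest to that of Tcof1 on 1424643_at were H2-K1, Ush1c, Phactr1, Pdzph1 and Camk2n2. Nearness was the root mean square difference of log2 deviations from each probe set's mean, which was 0.09, 0.10, 0.11, 0.12 and 0.12 for these genes. For scale, it was 0.13 and 0.20 for the other Tcof1 probe sets. The likeness chose these genes, so their differences are given without a test. H2-K1, a class I histocompatibility gene, gave 318, 283 and 297 in wild types and 177, 158 and 188 in heterozygotes on 1425336_x_at. Its 3 other tested probe sets differed by -0.87, -0.77 and 0.14. Ush1c, which encodes the scaffold protein harmonin, gave 67.6, 68.4 and 65.1 against 43.3, 36.0 and 44.4. Heterozygous embryo 2 had the lowest signal of the 6 for all 5 genes, as it did for Tcof1 on 1424643_at. The choice of genes by that pattern favours this likeness, so it is no further result.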

How the data were processed

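Total RNA from 6 single embryos was labelled in 2 cycles from 100 ng, and 20 µg of cRNA was hybridised per array, per the labels' protocols. The deposited values are linear intensities, 1 for each probe set on each array, which the authors obtained with GCOS, Affymetrix's scanner program, per the submitters' processing notes that name no version. The trimmed mean (2% at each end) was 150 on every array, found from the values. Per the file headers, 4 arrays were scanned on a first day and 2 (replicate 3 of both genotypes) on a second, and no fluidics module held both genotypes, so module and genotype cannot be told apart. The group, given as Wt or Mut, and the replicate number came from the sample titles.

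The signals were put on the scale log2(signal + 1.87), with the 10th percentile of the non-control values as the offset. The dimmest 40% by mean on that scale were set aside, so that 27022 probe sets were tested. A linear model of genotype was fitted in limma 3.58.1 under R 4.3.3, with eBayes moderation along the intensity trend, and the two-sided p-values were adjusted by Benjamini-Hochberg over the whole table, with a threshold of 0.05. Confidence intervals are for single probe sets, without adjustment. Arrays correlated between 0.964 and 0.974 in pairs. Gene names came from the platform annotation, and a look-up of each gene identifier in RefSeq's GRCm38.p6 table altered 0 of them. Alternatives were a pseudocount of 1 or 7.03, no filter or one at 60%, quantile normalization, equal array medians, no intensity trend, array weights, the replicate number or the scan day as a block, each scan day alone, and each array left out in turn.

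The members and lists were chosen with earlier results of these data known. By the naming rule, every member probe set, the 2 genes with the smallest p of each list and the 5 genes nearest to Tcof1 are named. Of the 35 listed pathway genes, 32 were analysed here. Znrd1, Taf1d, Polr2e and Polr1f are named outside the rule, after their values were seen. Figures were drawn with matplotlib 3.10.9.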

Additional observations from a re-analysis of the deposited data

How the results depend on the processing

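The Tcof1 difference kept its sign in all 18 alternatives and passed in 7 of the 17 that give a test. It did not pass on the first scan day alone (-0.95), without the intensity trend, with the replicate block or with scan day as a block (-0.88 in each), or without any 1 array (-0.95 to -0.77). In the same settings the member probe sets called by limma went from 1 to 0, also without each array in turn. Over all probe sets the 22 calls became 12 on the first scan day alone, 10 with the replicate block, 14 with scan day as a block, 0 without the intensity trend (1571 at an unadjusted p under 0.05) and 8 to 20 without 1 array. Wild-type embryo 1 gave the 8 when left out, the other wild types 11 each, and heterozygous embryo 2 gave 12. The median of the other members lay between 0.02 and 0.12, and no probe set of theirs passed under any alternative (lowest limma adjusted p 0.548). The cause of these changes was not tested. Of the 22 member probe sets, 16 kept their sign throughout. The others changed sign near 0, apart from Polr1a on 1460215_at (-0.34 on the first scan day). On the second scan day alone Polr1a on 1417775_at was -0.029, Nolc1 on 1428870_at 0.015 and on 1450087_a_at -0.052. Without 1 array Nolc1 on 1428870_at ran from -0.079 to 0.056, Polr1d on 1459657_s_at from -0.017 to 0.16, Polr1e on 1419058_at from -0.015 to 0.12 and Polr1a on 1460215_at from -0.20 to 0.40. Deviations of same-numbered arrays from their group means correlated at -0.105 to -0.024 (Pearson, 3 pairs). With 3 arrays per group such deviations are tied to each other, so these values cannot decide whether the replicate numbers pair the arrays.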
